A study of Arabidopsis thaliana with 116 samples.

Results

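The lines compared here are all 116 Arabidopsis thaliana recombinant inbred lines of the series, split by the signal of AT3G44630, a TIR-NBS-LRR gene on chromosome 3. The log2 values of its probe set were cut into the 2 groups with the smallest sum of squares within groups, which put 82 lines in an upper group and 34 in a lower group. The groups were thus chosen by the measured signal of AT3G44630 in these same arrays, and its values and the share of lines on each side are given as a description without a test. All other probe sets were compared between upper and lower lines, with genes near AT3G44630, elsewhere on chromosome 3, on other chromosomes and in the organelles counted apart.

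The lines were bred from the accessions Col-0 and C24, crossed in both directions, and carry the letter Q (59 lines) or R (57 lines) in their names. Which letter stands for which direction of the cross is not given in the labels. RNA came from developing seeds 10 to 11 days after flower opening, pooled for each line over 8 siliques from each of 6 plants, and was hybridised to 1 Affymetrix array per line. Every line is thus measured once: the spread within a group is the spread between lines, which carry different parental segments at all other loci, together with technical error. No parent was assigned to the upper or the lower side, since the series holds no parental array. The number of arrays limits the precision, with 34 lines in the smaller group.

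In a recombinant inbred line, repeated selfing has fixed one parental allele at nearly every locus, so a gene with parent-specific signal shows 2 clusters of lines, and an unbiased locus has about equal numbers in each. Linked genes share the same split except where a crossover lies between them. TIR-NBS-LRR proteins are intracellular immune receptors: the LRR part takes part in recognising pathogen effectors, and the TIR part is an enzyme that starts immune signalling through EDS1. AT3G44630 lies in the RPP1 cluster, a group of such receptor genes known for recognition of downy mildew effectors and for differing in gene content and sequence between accessions. For AT3G44630 and every other gene here, a probe set's signal can differ because the parents differ in the sequence its probes match or because they differ in transcript level, and the signal does not tell these apart. Likewise, in bulk seed RNA fewer cells of a type and less RNA per cell cannot be told apart.

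AT3G44630 was clearly in 2 states. Upper lines ran from 5.30 to 6.42 on the log2 scale, with a median of 5.88. Lower lines ran from 3.69 to 4.55, with a median of 4.20. No line lay between 4.55 and 5.30, and no line fell within 1 within-group SD of the midpoint. The group means, 5.89 ± 0.222 (SD, n = 82) and 4.18 ± 0.206 (SD, n = 34), were 7.85 within-group SD apart. Both letters were split alike: 43 of 59 Q lines and 39 of 57 R lines were upper.

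**Figure D1:**
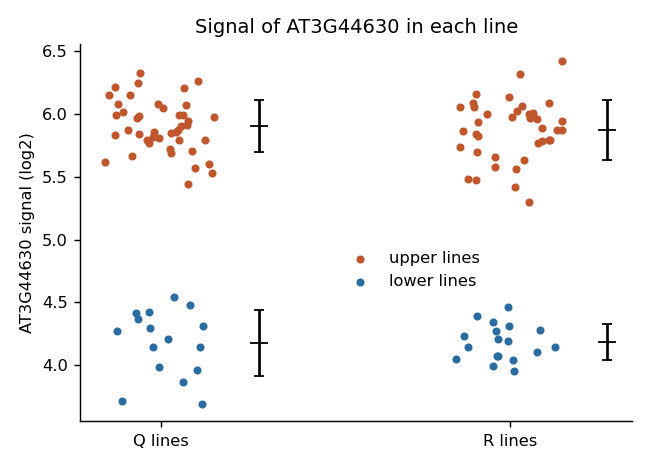
Log2 signal of the AT3G44630 probe set in each of 116 lines, Q lines at left and R lines at right; each point is a line and the bars give mean and SD of the upper and lower lines. The 82 upper lines lie at 5.30 or above and the 34 lower lines at 4.55 or below, with no line between.

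Of the 116 lines, 70.7% were upper (95% exact binomial interval 61.5% to 78.8%), 72.9% of the Q lines and 68.4% of the R lines. To follow this share along the chromosome, 22 chromosome 3 marker genes were used, AT3G44630 among them: genes whose own 2 groups lay at least 4 within-group SD and 1 log2 unit apart, with at least 20% of lines in the smaller. Their sides were aligned along the chromosome, so that the aligned upper side is the one that the upper lines of AT3G44630 mostly share, or, farther away, the one matching the neighbouring marker. Positions are places in the order of annotated genes, negative towards the start of the gene order.

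AT3G44630 was chosen as the locus for its share of lines, so its rank among the markers is a description and was not tested. The aligned upper share was highest at AT3G44630 and lower on both sides of it. It was 37.1% at AT3G02700, 4872 places before AT3G44630, and 48.3% at AT3G20270, 2563 places before. Nearer, it was 62.1% at AT3G29280, 1228 places before, and 66.4% at AT3G43510, 209 places before. Beyond AT3G44630 it was 58.6% at AT3G48410, 573 places away, 53.4% at IRX15, 803 places away, and 55.2% at AT3G63340, the last marker, 2499 places away. Neighbouring markers are linked and their intervals overlap: the interval at AT3G43510 was 57% to 74.9% and that at AT3G48410 49.1% to 67.7%. The intervals of AT3G44630, AT3G43510, AT3G29260 and AT3G29280 lay wholly above 50%, and those of AT3G02700, AT3G04200, AT3G07180 and DRT100 wholly below it. This is no test of unequal shares, since the locus was chosen for its share and the sides of the other markers were aligned from it. The alignment across the interval from AT3G20270 to AT3G28220 rests on a majority of lines, since 33 of 116 lines changed sides there. No marker gene lay between AT3G20270 and AT3G28220.

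**Figure D2:**
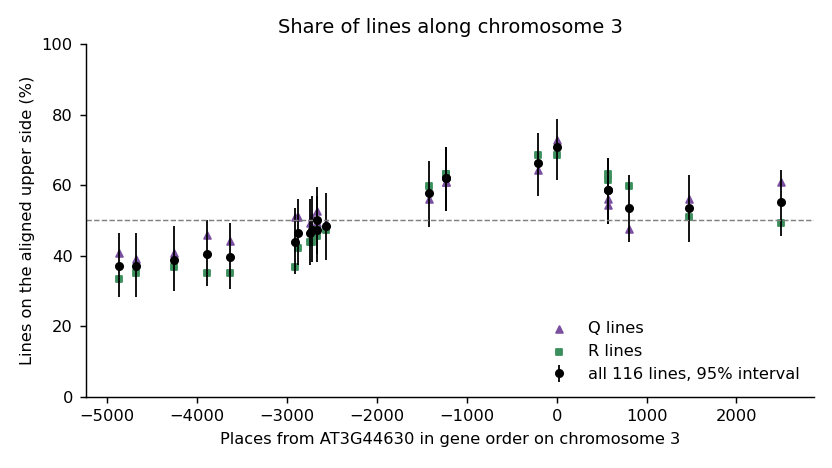
Percentage of lines on the aligned upper side at 22 chromosome 3 marker genes, against places in gene order from AT3G44630; black points are all 116 lines with 95% exact binomial intervals, triangles Q lines and squares R lines, and the dashed line marks equal shares. The share is 70.7% at AT3G44630, 37.1% at the first marker and 55.2% at the last.

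The flanking markers AT3G29280 and AT3G48410 show how the excess was made up. Of 49 lines on the upper side at both, all 49 were upper at AT3G44630. Of 25 lines on the lower side at both, 2 were upper at AT3G44630. The 42 lines that changed sides between the flanking markers were mostly upper: 18 of 23 with the upper side at AT3G29280, and 13 of 19 with the upper side at AT3G48410. These counts describe the lines that the rule split, and no test was made of them.

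The split was not accompanied by a detected shift at marker genes of other chromosomes. Of 13 such genes, spread over chromosomes 1, 2, 4 and 5, none passed the test for a difference in share between upper and lower lines (two-sided Fisher's exact tests; smallest p = 0.21, at AT4G02540, adjusted p = 0.992). At AT4G02540, 31.7% of upper lines and 44.1% of lower lines were on that gene's upper side. RNA quality, read as how far 3′ probe sets of control transcripts exceeded their 5′ probe sets, was 0.79 ± 0.378 log2 in upper and 0.80 ± 0.391 log2 in lower lines (SD; permutation test, p = 0.949). The array medians were 5.91 and 5.90 (permutation test, p = 0.154).

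In the comparison of signals, 246 of 22745 probe sets (1.08%) differed between upper and lower lines at an adjusted p under 0.05 (limma with the letter as covariate, Benjamini-Hochberg adjustment). Near AT3G44630, within 400 annotated genes on either side, 38 of 239 probe sets (15.9%) were called, 21 higher (8.79%) and 17 lower (7.11%) in upper lines. Elsewhere on chromosome 3 it was 87 of 2506 (3.47%), 61 higher (2.43%) and 26 lower (1.04%). On the other chromosomes it was 14 of 10621 (0.132%), 6 higher (0.0565%) and 8 lower (0.0753%). The remaining calls were 1.15% of the 9233 probe sets with no single gene name and 1 of 59 whose gene is not in the gene table. No probe set other than that of AT3G44630 separated the 2 groups of lines without overlap (0 of 22745, 0%). Differences below are upper minus lower lines on the log2 scale, and a gene "rose" or "fell" in upper lines relative to lower lines.

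The share of genes called was highest within 200 places before AT3G44630, and called genes formed a broad stretch along the chromosome. It was 27.3% within 100 places before AT3G44630, 24.1% from 100 to 200 places before and 15.4% within 100 places after. The share before AT3G44630 went down to 3.70% at 400 to 800 places, was 16.1% at 1200 to 1600 places, and was 0.323% at 2400 to 3200 places. No gene beyond 3200 places before was called, out of 309 and 458 measured in the next bins. After AT3G44630 it was 9.09% at 100 to 200 places, 11.8% at 200 to 400, 15.3% at 400 to 800 and 1.01% beyond 2000. On that side it thus did not fall steadily with distance. Called or not, genes measured within 100 places before AT3G44630 had a median size of difference of 0.06, against 0.02 at 400 to 800 places before.

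**Figure D3:**
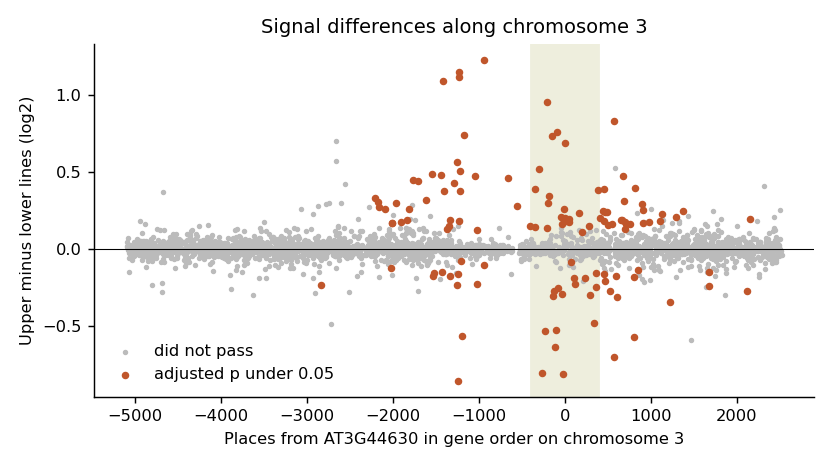
Difference in log2 signal between 82 upper and 34 lower lines for each measured chromosome 3 gene, against places in gene order from AT3G44630; coloured points passed an adjusted p under 0.05 (limma), grey points did not, and the shaded band holds the 400 genes on either side. Called genes lie on both sides of 0 and thin out beyond about 2400 places before AT3G44630.

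Near AT3G44630, the genes with the smallest p were of varied function and moved in both directions. AT3G44100, an ML domain gene of the family that binds lipids, ran from 10.2 to 11.5 in upper lines with a median of 11.3. In lower lines it ran from 10.1 to 11.4 with a median of 10.5. The difference was 0.76 (SE 0.0484, adjusted p = 2.34e-26) and the split accounted for 68.1% of the variance of its signal. The ranges overlapped, and 5 lines lay past the midpoint of the group means, 4 upper lines below it and 1 lower line above it. AT3G44020, which encodes a thylakoid lumen protein, fell by 0.53 (SE 0.0361), from a median of 6.95 in lower lines to 6.41 in upper lines. Here 6 upper and 4 lower lines lay past the midpoint.

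AT3G44610, an AGC-type protein kinase gene 2 places from AT3G44630, rose by 0.69 (SE 0.0507, adjusted p = 6.46e-22). Its upper lines ran from 5.67 to 6.83 around a median of 6.24, and its lower lines from 4.79 to 6.05 around 5.53. Again a few lines crossed, 4 on each side. AT3G43740, a leucine-rich repeat protein gene, rose by 0.74 (SE 0.0548), with medians of 7.64 and 6.81. AT3G43510, annotated as a pseudogene and itself a marker gene, rose by 0.95 (SE 0.0732), with medians of 5.36 and 4.29. A few upper lines lay below the midpoint at both, 8 of 82 for AT3G43740 and 7 of 82 for AT3G43510.

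Among enzymes and regulators, AT3G43270, a pectin methylesterase gene whose product removes methyl groups from cell wall pectin, fell by 0.81 (SE 0.0783). BIC2 (AT3G44450), an inhibitor of the blue light receptor cryptochrome, also fell by 0.81 (SE 0.0918). BIC2 lines overlapped more, from 5.77 to 7.74 in upper and from 6.25 to 8.24 in lower lines. AT3G43430, a RING finger gene of the kind found in ubiquitin ligases, fell by 0.53 (SE 0.0426), and AT3G43960, a cysteine protease gene, fell by 0.64 (SE 0.0711). Smaller falls were those of the oxidoreductase gene AT3G44190 (-0.26), the 2-oxoglutarate-dependent dioxygenase gene AT3G46500 (-0.30) and the glutathione transferase gene GSTU27 (-0.30). AT3G42850 (0.39), AT3G43610 (0.35), which encodes a component related to the gamma-tubulin complex, and AT3G44690 (0.18) rose. Signals were low in both groups for AT3G46500 (means of 3.53 in upper and 3.83 in lower lines) and AT3G44690 (3.56 and 3.38). For these 15 genes the difference had the same sign in Q lines and in R lines, and it kept its call under every alternative listed in the closing section in which the gene was tested.

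Within 25 places of AT3G44630, 12 genes were measured and 5 were called, 4 higher and 1 lower in upper lines. Called shares were 1.08% over all probe sets and 15.9% within 400 genes on either side. The 4 that rose were the kinase gene AT3G44610, AT3G44690, CYP71 (AT3G44600), a cyclophilin that acts on chromatin (0.20, SE 0.0291), and AT3G44590, an acidic ribosomal protein P2 gene (0.26, SE 0.0519). The call of AT3G44590 was lost in Q lines alone (adjusted p = 0.234), in R lines alone (adjusted p = 0.0637) and with the split at AT3G43510 (adjusted p = 0.0691), and that of CYP71 in R lines alone (adjusted p = 0.0704). BIC2 was the gene that fell. AT3G44740, AT3G44580, AT3G44620, AT3G44510, AT3G44500, AT3G44470 and AT3G44570 did not pass the test, with differences from -0.04 to 0.10. Genes that rose, fell and did not pass the test thus lay among one another. Signals were low in both groups for AT3G44580 (means of 3.34 in upper and 3.31 in lower lines), AT3G44510 (3.37 and 3.38), AT3G44470 (3.28 and 3.27) and AT3G44570 (3.53 and 3.52). A difference in these genes could have been missed. The probe sets of AT3G44500 and AT3G44470 are marked by the manufacturer's suffix as matching more than 1 sequence. A little farther, 37 places before AT3G44630, lay the only other measured gene of the RPP1 cluster, the TIR-NBS-LRR gene AT3G44400, which rose by 0.16 (SE 0.0217, adjusted p = 1.13e-08). Its signal was low in both groups, from 3.11 to 3.69 in upper lines (median 3.33) and from 2.95 to 3.47 in lower lines (median 3.16).

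The order of crossovers could be read from 9 lines in which AT3G43510 and AT3G44630 lay on different sides, 7 of them upper at AT3G44630 only and 2 lower at AT3G44630 only. AT3G43430 and AT3G43740, 228 and 150 places before AT3G44630, lay on the side of AT3G43510 in 9 of 9 lines, each gene's side being read from the midpoint of its own group means. AT3G44100, 90 places before, and AT3G44020, just beyond it, sided with AT3G44630 in 4 lines and with AT3G43510 in 5. AT3G44610, 2 places before, sided with AT3G44630 in 9 of 9. Among these genes the side thus went from that of AT3G43510 to that of AT3G44630 with place along the chromosome. The genes read in this way were those near AT3G44630 whose variance the split accounted for most, from 57.6% for AT3G43430 to 68.1% for AT3G44100. In the 7 lines upper at AT3G44630 only, AT3G43740 ran from 6.84 to 7.21 around a median of 6.92, close to the lower lines' median of 6.81, while AT3G44610 ran from 5.94 to 6.53 around 6.25, close to the upper lines' median of 6.24. All 5 lines in which AT3G44100 lay past its midpoint were among these 9.

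Elsewhere on chromosome 3, called genes were also mixed in direction, with a median size of 0.24 against 0.27 for the calls near AT3G44630. The strongest were in the stretch of AT3G28220 to AT3G32940, on the same side as AT3G43510. AT3G29280 and AT3G29260, the latter a short-chain dehydrogenase gene, are marker genes with 2 states of their own and rose by 1.15 (SE 0.152) and 1.12 (SE 0.149). AT3G28220, a TRAF-like domain gene, rose by 1.09 (SE 0.128), with medians of 5.29 in upper and 4.08 in lower lines. Their groups overlapped widely: at AT3G29280, 15 of 82 upper and 5 of 34 lower lines lay past the midpoint, as many as had changed sides between that marker and AT3G44630. AT3G32940 (0.46), AT3G29310 (0.51), AT3G29330 (0.38) and AT3G28950 (0.43) rose, and AT3G29570 fell by 0.57. On the other side, the marker genes AT3G48410 (0.83, SE 0.119), AT3G48420 (-0.70, SE 0.116) and IRX15 (-0.58, SE 0.12), needed for xylan synthesis in the cell wall, were called. The call of IRX15 was lost in Q lines alone (adjusted p = 0.341) and with the split at AT3G43510 (adjusted p = 0.0794). AT3G55470, 1472 places after, had a difference of -0.60 and did not pass the test (adjusted p = 0.226).

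On the other chromosomes 14 genes were called, 6 higher and 8 lower in upper lines, and 2 of them stood apart in size. The adjustment ran over all probe sets, the many calls of chromosome 3 among them, and was not repeated for the other chromosomes alone. The threshold therefore does not fix the share of false calls among these 14, and the weakest might not pass alone. The largest unadjusted p among the 14 was 0.000469, at AT1G75180 (limma). The 14 lay on chromosome 1 (5 genes), chromosome 2 (2), chromosome 4 (1) and chromosome 5 (6). At an unadjusted p under 0.05 (limma) it was 461 of 10621, or 4.34%, against 6.87% over all probe sets. The 4.34% does not exceed the share that a threshold of 0.05 gives by itself where nothing differs. AT1G56300, a DnaJ domain gene of the co-chaperone type on chromosome 1, ran from 3.95 to 6.71 in upper lines with a median of 5.66. In lower lines it ran from 3.90 to 6.09 with a median of 4.30. The difference was 1.07 (SE 0.125, adjusted p = 4.52e-11), 1.20 in Q lines and 0.95 in R lines, and the split accounted for 38.9% of the variance. The upper lines were spread more widely, 5.52 ± 0.687 (SD, n = 82) against 4.45 ± 0.398 (SD, n = 34), and 22 upper lines and 2 lower lines lay past the midpoint.

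AT5G18450, an AP2/ERF transcription factor gene of the DREB group on chromosome 5, rose by 0.66 (SE 0.0835, adjusted p = 9.08e-10), 0.80 in Q and 0.53 in R lines. Upper lines ran from 5.62 to 7.52 with a median of 6.53, and lower lines from 5.31 to 6.48 with a median of 5.88. Every lower line lay below the upper lines' median, while 20 upper lines lay past the midpoint. AT5G16460, a seipin gene of chromosome 5 whose product shapes lipid droplets, fell by 0.29 (SE 0.058, adjusted p = 0.000326), with medians of 5.93 in upper and 6.27 in lower lines. In R lines alone it was called, in Q lines alone it was not (adjusted p = 0.28).

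**Figure D4:**
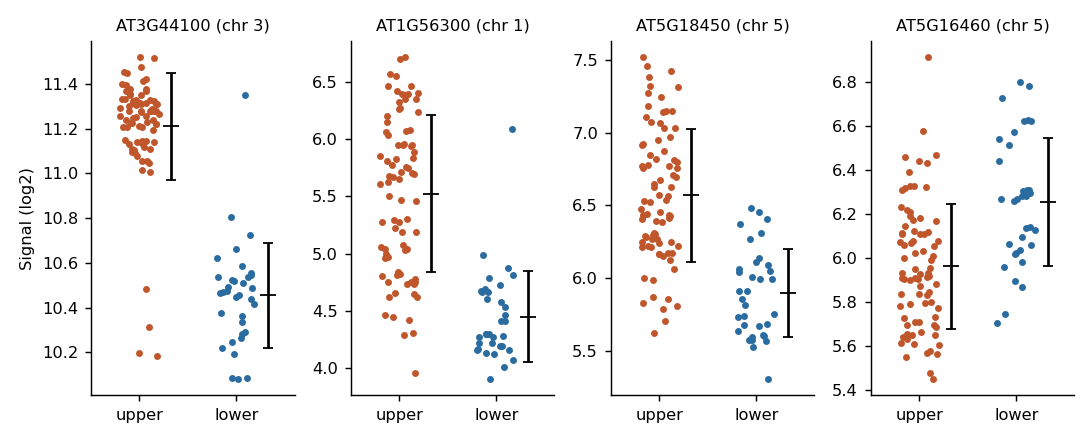
Log2 signal of AT3G44100 and of the 3 genes of other chromosomes with the smallest p, in upper (82) and lower (34) lines; each point is a line, the bars give mean and SD, and each panel has its own axis. AT3G44100 has 5 lines past the midpoint of its group means, AT1G56300 and AT5G18450 are spread widely in upper lines, and AT5G16460 is lower in upper lines with broad overlap.

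The other 11 calls were between 0.11 and 0.32 in size. AT2G14800 (0.16), AT1G32740 (0.18), AT5G22690 (0.13), itself a TIR-NBS-LRR gene, and the protein kinase gene AT4G10390 (0.22) rose. AT5G05600, which encodes an oxygenase that inactivates jasmonate, fell by 0.32 (SE 0.0811). AT1G04680, a pectate lyase gene (-0.24), the MYB-like gene AT5G05790 (-0.19), AT1G23750 (-0.11), AT1G75180 (-0.11), the pseudogene AT5G34920 (-0.25) and AT2G07140 (-0.20) also fell. The probe sets of the last 2 are marked by the manufacturer's suffix as matching more than 1 sequence. Each of these 11 lost its call in 1 or more of the alternatives, and 10 of them, all but AT5G05790, in both Q lines alone and R lines alone, which hold fewer lines.

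Where along chromosome 3 the 14 genes followed a marker most closely was read from the variance that each of the 22 marker splits accounted for. For AT1G56300 it was 38.9% at AT3G44630 and 36.3% at AT3G43510, then 19.7% at AT3G29280 and 1.22% at AT3G48410. For AT5G18450 it was 35.4%, 34.3%, 17% and 3.20% at the same markers. AT3G44630 and AT3G43510 were thus close to each other for both genes, and the markers beyond were much lower. In the 9 lines that separate these 2 markers, AT1G56300 sided with AT3G44630 in 5 and with AT3G43510 in 4, and AT5G18450 in 3 and 6. The 14 genes had been called by the AT3G44630 split itself, which favours that marker in the following count. AT3G44630 gave the highest share for 6 of the 14 genes, AT3G43510 for 3, and another marker for 5: AT3G28220 for AT2G14800, AT3G18880 for AT5G05790, AT3G17940 for AT1G23750, AT3G29260 for AT5G34920 and IRX15 for AT1G04680. For 3 of the 14, a marker gene outside chromosome 3 accounted for more than any chromosome 3 marker. These were AT5G03420 for AT5G05600 (18.1% against 11.6%), AT4G02540 for AT4G10390 (21% against 13%) and AT1G48580 for AT5G34920 (19.7% against 17.4%). AT5G03420 and AT4G02540 lie on the same chromosome as the gene they were set against, and AT1G48580 does not.

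**Figure D5:**
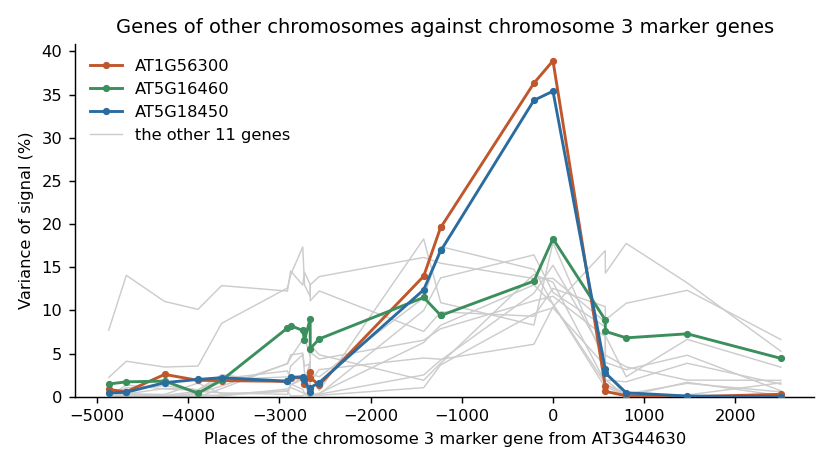
Percentage of variance of the log2 signal accounted for by the split at each of 22 chromosome 3 marker genes, against places in gene order from AT3G44630, for the 14 called genes of other chromosomes; lines join the values of a gene. AT1G56300 and AT5G18450 reach 38.9% and 35.4% at AT3G44630 and are at 1.22% and 3.20% at AT3G48410, 573 places away.

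AT1G56300 also differed by a marker on its own chromosome. Of the 13 marker genes of other chromosomes, AT1G48580 accounted for the most variance over all lines, 21.4%. Upper lines on the lower side at AT1G48580 had a mean of 5.86 ± 0.587 (SD, n = 48), and upper lines on its upper side 5.06 ± 0.531 (SD, n = 34). Lower lines had 4.64 ± 0.424 (SD, n = 19) and 4.20 ± 0.166 (SD, n = 15) in the same order. For AT5G18450 the marker was AT4G14980 on chromosome 4, with 13.6%. Upper lines had 6.79 ± 0.431 (SD, n = 41) on its lower and 6.35 ± 0.371 (SD, n = 41) on its upper side, and lower lines 5.99 ± 0.335 (SD, n = 16) and 5.81 ± 0.255 (SD, n = 18). In both genes the difference between upper and lower lines at AT3G44630 was present on either side of the second marker, 1.21 and 0.85 for AT1G56300 and 0.80 and 0.54 for AT5G18450. The second markers were chosen after the values were seen, so these means carry no test.

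No measured member of the immune lists beyond the RPP1 cluster passed the test, while AT5G22690, the TIR-NBS-LRR gene of chromosome 5 called above, was in none of these lists. Of 89 genes in 3 lists (other NBS-LRR receptors, immune signalling components, and salicylic acid and defence response genes), 16 had a probe set of their own, and 0 of the 16 passed the test or reached an unadjusted p under 0.05 (limma). Over all probe sets 1.08% were called and 6.87% had an unadjusted p under 0.05, so a count of 0 among 16 is near the background. Their differences ran from -0.09 to 0.07 with a median of -0.02, against a median of -0.0028 over all probe sets. Upper and lower means were 3.97 and 4.00 for SAG101, a partner of EDS1 (difference -0.04, SE 0.0375), and 3.96 and 3.99 for the transcription factor gene WRKY53 (-0.03, SE 0.0257). For PDF1.2, a defensin gene of the jasmonate response, they were 3.85 and 3.86 (-0.01, SE 0.0301). Precision differed between members: the receptor gene AT4G19500 had an SE of 0.254, so that only large differences could have been seen there. Other members had low signal in both groups, such as AT1G17615 (means of 3.16 in upper and 3.17 in lower lines), AT1G56540 (3.16 and 3.16) and AT3G48080 (3.09 and 3.08). A small SE at such signals need not mean that a transcript was measured well.

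No measured gene of the seed lists passed the test either. Seed markers had high signal in both, with means of 13.8 in each group for the oleosin gene AT3G01570 and of 13.4 in upper and 13.5 in lower lines for the cupin storage protein gene AT1G03890. The endosperm regulator gene AGL62, with means of 3.23 and 3.25, was near the lowest signals of the arrays. Of 101 genes in 8 lists of seed functions (storage proteins, oil bodies and fatty acids, late embryogenesis proteins, maturation regulators, photosynthesis, cell cycle, endosperm and seed coat), 36 were measured and 0 were called, with differences from -0.14 to 0.26 and a median of 0.0031. This too is near the 1.08% called over all probe sets. At an unadjusted p under 0.05 there was 1 (limma), the seed coat peroxidase gene AT3G50990, which lies on chromosome 3 (0.26, SE 0.0994, adjusted p = 0.403). None of 8 heat shock genes of a further list had a probe set with a single gene name. In the organelles, 0 of 69 plastid and 0 of 18 mitochondrial probe sets were called (0% each, near the 1.08% over all probe sets). At an unadjusted p under 0.05 (limma) there were 0 plastid and 4 mitochondrial probe sets, the latter 22.2% against 6.87% over all.

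Whether the split acted differently in Q and R lines was tested as an interaction over all 22745 probe sets. No probe set was called (0%; limma, smallest adjusted p = 0.998), and 949 probe sets, 4.17%, had an unadjusted p under 0.05. The 5 smallest p belonged to PDF1.2 (-0.12 in Q and 0.09 in R lines), PYK10 (-0.08 and 0.10), AT1G25390 (-0.03 and 0.17), AT3G54390 (0.15 and -0.08) and AT5G09840 (0.10 and -0.09).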

How the data were processed

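The deposited values are log2 signals of 22810 Affymetrix probe sets on 116 arrays, which the authors obtained with RMA (named in the submitters' processing notes). Not given in the sources used here are the RMA version, the annotation build of the array and any array batch. They were used without further normalisation. Probe sets were named by the platform annotation where it gave 1 gene (13513). Another 9233 had several or no names, and 64 were array controls and left out. Chromosome and gene order came from the RefSeq table of TAIR10.1. No coordinates are printed, since the build behind the array is not named, and no probe sequences were used.

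Lines were split at AT3G44630 in Python 3.11.15 (scipy 1.17.1), and 22745 probe sets were fitted in R 4.3.3 with limma 3.58.1 (lmFit and eBayes, split plus Q/R letter, two-sided), with Benjamini-Hochberg adjustment over all of them and a threshold of 0.05. The code was tested on simulated data. Permutation tests used 100000 resamples. Genes are named by fixed rules: the 15 smallest p near AT3G44630, the 8 smallest elsewhere on chromosome 3, up to 15 on other chromosomes, all measured genes within 25 places, called list members, marker genes and the 5 smallest interaction p. SAG101, WRKY53, AT4G19500, AT3G01570, AT1G03890, AGL62 and AT3G50990 were named after their values were seen. Gene lists, members and the split itself were chosen with earlier results of these data known. Alternatives covered a filter at a mean of 5, array centring, array weights, RNA quality, each letter alone, continuous values, the split at AT3G43510, markers or 10 principal components as covariates, and other windows.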

Additional observations from a re-analysis of the deposited data

How the results depend on the processing

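The counts of 246 calls in all, 38 near AT3G44630, 3.47% of probe sets elsewhere on chromosome 3 and 14 on other chromosomes moved by less than 1.5 times with the filter at a mean of 5, median centring, array weights, the RNA quality covariate, no letter, the split at AT3G43510, the lines on which both markers matched and, added after seeing the data, without probe sets marked as matching several sequences. The share called near AT3G44630 did change with the filter at a mean of 5, from 38 of 239 probe sets (15.9%) to 29 of 81 (35.8%). Similar counts did not always mean the same genes. The split at AT3G43510 kept 31 of the 37 calls near AT3G44630 that it tested, 53 of 87 elsewhere on chromosome 3 and 10 of 14 on other chromosomes. Removing border lines changed nothing, since there were none. In Q lines alone there were 95 calls in all, 1.08% elsewhere on chromosome 3 and 4 on other chromosomes, and in R lines alone 85, 0.878% and 4; both hold fewer lines. With 10 principal components as covariates they were 516, 6.94% and 64. On other chromosomes there were 24 calls with continuous AT3G44630 values and 23 with the 13 markers as covariates. At 5 SD in place of 4, 18 of 22 marker genes remained, and the interaction stayed at 0 calls with the filter. A window of 200 genes held 23 calls and one of 800 genes 64; the organelle count stayed at 0 throughout. Of 875 values of 64 named genes under alternatives, 833 kept their side of the threshold, 41 lost the call, 1 gained it and 0 called values changed sign, while 5 values changed sign in genes called neither in all lines nor under that alternative. AT1G56300 ranged from 0.92 to 1.20 and AT5G18450 from 0.53 to 0.80, called each time, and AT5G16460 from -0.32 to -0.24. The cause of the changes with principal components, continuous values and markers was not tested. No paired analysis was possible because Q and R lines are different lines and their numbers only name them. The single array per line and 34 lower lines limit what small differences could be seen, and signals near the low end of the array, such as AT3G44400, are the least informative.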
